A study of Homo sapiens with 18 samples.

Results

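The serine/arginine-rich (SR) splicing factor family was followed at the level of gene counts in RNA-seq of 2 breast cancer cell lines treated with a PARP inhibitor (PARPi). Its members were SRSF1, SRSF2, SRSF3, SRSF4, SRSF5, SRSF6, SRSF7, SRSF9, SRSF10 and SRSF11, found in the count table by Ensembl identifier without version. These are 10 of the 35044 genes in the table, and all 10 passed the filter on low counts that left 18335 genes for testing. The libraries are labelled HCC1937-EV, described in the study as the BRCA1-mutated breast cancer line HCC1937 with an empty vector, and HCC1937-OE-BRCA1, the same line with overexpressed wild-type BRCA1. Each cell line was sequenced untreated (0 h) and after 12 h and 24 h with olaparib at 10 µmol/L, with 3 libraries in each of the 6 conditions, so that there were 18 libraries. In the sample labels, olaparib is given for the 0 h libraries as well, and the genotype of HCC1937-EV is called wild type. The groups used here follow the cell line and the time in the sample titles. The series holds no untreated libraries at 12 h or 24 h, so olaparib and time in culture cannot be told apart. An effect of olaparib or a response to it means, below, a difference from the 0 h libraries. Each genotype is represented by 1 cell line, and nothing in the labels says whether the 3 libraries of a condition came from separate cultures, so the p-values below measure the spread between these libraries.

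SR proteins carry RNA recognition motifs that bind exonic enhancer sequences and a domain rich in arginine and serine that recruits the spliceosome to nearby splice sites. The domain is phosphorylated by SRPK and CLK kinases, which sets where the proteins reside and when they act. Many SR genes limit their own output through poison exons, alternative exons with a stop codon that send the transcript to nonsense-mediated decay. SR proteins and hnRNP proteins often act in opposite directions on the same exon. Counts per gene add all isoforms of a gene, so inclusion of a poison exon cannot be told apart from a change in the level of the coding transcript here.

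In the tests below, 4 members had an adjusted p under 0.05 at 24 h of olaparib against untreated: SRSF3, SRSF9, SRSF1 and SRSF6. SRSF3 did so in both cell lines and the others in HCC1937-EV alone. Each missed this threshold when 1 or another single library was dropped, and SRSF6 missed it whichever of the 6 compared libraries was dropped. The sequence just upstream of each of these genes is shown to place its start in the genome. Each is 100 bases, read 5′ to 3′ along the gene's strand from RefSeq (build GRCh38.p14), and ends before the more upstream of the RefSeq and GENCODE 29 gene starts. Capitals mark, on either strand, the letters of the CCAAT box (CCAAT), the GC box (GGGCGG), the ETS core (CCGGAAG), the TATA box (TATAAA), the cyclic AMP response element (TGACGTCA) and the E2F site in its forms TTTCCCGC or TTTGGCGC. The windows are SRSF3 on chr6:36594253-36594352 (plus strand), SRSF9 on chr12:120469794-120469893 (minus strand), SRSF1 on chr17:58007347-58007446 (minus strand) and SRSF6 on chr20:43457796-43457895 (plus strand).
SRSF3: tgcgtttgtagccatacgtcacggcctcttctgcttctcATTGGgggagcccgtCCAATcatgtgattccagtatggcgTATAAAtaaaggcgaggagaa
SRSF9: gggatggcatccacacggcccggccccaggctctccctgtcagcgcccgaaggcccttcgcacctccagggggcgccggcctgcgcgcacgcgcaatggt
SRSF1: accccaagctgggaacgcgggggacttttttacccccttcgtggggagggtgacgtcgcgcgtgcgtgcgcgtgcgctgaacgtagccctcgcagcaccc
SRSF6: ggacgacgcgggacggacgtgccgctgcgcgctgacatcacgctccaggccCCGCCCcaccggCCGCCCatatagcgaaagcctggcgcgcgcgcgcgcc
The SRSF3 window held CCAAT once on each strand and TATAAA once. The SRSF6 window held GGGCGG 2 times on the opposite strand, and no listed motif was found in the windows of SRSF9 and SRSF1. In the full 250 bases before the RefSeq start, CCAAT was present in 1 of 11 windows of 9 SR genes and in 32.0% of the 35116 windows of all genes. TATAAA was present in 3 of the 11 SR windows and in 10.7% of all windows, and GGGCGG in 4 of the 11 and in 42.6%. SRSF7 and SRSF11 had more than 1 window each. Those of SRSF7 overlapped and shared GGGCGG matches, so the same bases entered that count more than once. These matches are descriptions of the letters and no binding was measured.

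The labels were checked against marker genes before any comparison, and the 9 libraries labelled HCC1937-EV stood apart from what is known of the line. HCC1937 is known as an epithelial line of the basal type. EPCAM, an epithelial adhesion protein, had 1 read over the 9 HCC1937-EV libraries and between 252 and 352 CPM (read counts scaled to the effective library size) in the HCC1937-OE-BRCA1 libraries. E-cadherin (CDH1) had at most 1.20 CPM in the former and at least 329.5 CPM in the latter. The 7 fixed markers of basal breast epithelium summed to between 146 and 206 CPM in HCC1937-EV libraries, nearly all of it EGFR, and to between 4042 and 5705 CPM in HCC1937-OE-BRCA1 libraries, with KRT17 and KRT5 the most abundant. KRT5, KRT14, KRT6A and CDH3 were at or near 0 in the HCC1937-EV libraries, each with at most 0.192 CPM. KRT8 and KRT18 were high in both cell lines, with at least 1683 and 737.5 CPM in every library. The 6 markers of fibroblasts and endothelium summed to between 99.4 and 156 CPM in HCC1937-EV libraries, of which COL1A1 gave 89.0 to 143.5 CPM while COL1A2 and COL3A1 stayed under 0.373 CPM, and to between 17.8 and 32.6 CPM in HCC1937-OE-BRCA1 libraries. PECAM1 of this list was higher in the latter, at 9.92 to 20.7 against 0.740 to 2.65 CPM. The 3 hormone receptor and luminal lineage markers analysed, ESR1, FOXA1 and GATA3, summed to between 19.6 and 26.4 CPM in HCC1937-EV and between 90.8 and 106 CPM in HCC1937-OE-BRCA1 libraries. The 4 leukocyte markers analysed summed to at most 2.40 CPM in any library. Across genes, log2 CPM of 2 libraries from different cell lines correlated at 0.728 to 0.753, against 0.976 to 0.990 for 2 conditions of 1 cell line.

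Without treatment, BRCA1 itself was read at 126, 111 and 116.5 CPM where the label is HCC1937-EV and at 166, 122 and 127 CPM where it is HCC1937-OE-BRCA1. These ranges overlap, and the difference of 0.24 ± 0.11 (log2, SE) had an adjusted p of 0.0654. At 12 h it was 0.16 ± 0.11 (adjusted p = 0.197). At 24 h the BRCA1 level was higher in the libraries labelled HCC1937-OE-BRCA1 by 0.77 ± 0.11 (log2, SE; adjusted p = 3.17e-06). The libraries are therefore named by their labels, EV-labelled and OE-labelled, throughout. An effect of BRCA1 on an SR gene and any other difference between these 2 cell populations cannot be told apart, so the comparisons within a cell line come first.

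Levels are CPM on library sizes scaled by TMM, a normalization that assumes most genes unchanged. That assumption was not met between the cell lines, where 72.7% to 73.9% of all genes tested had an adjusted p under 0.05. Small differences in level between the cell lines rest on this scaling. Total counts lay between 15081973 and 17571922 per library, so 1 CPM stood for 14.7 to 16.96 reads and each SR gene had at least 1167 reads in every library. The 10 SR genes together took 2345 ± 163 CPM (mean ± SD, n = 3) in untreated EV-labelled libraries, 2262 ± 202 CPM after 12 h and 2344 ± 189 CPM after 24 h. In OE-labelled libraries the sums were 1683 ± 143, 1528 ± 40.05 and 1714 ± 52.7 CPM. The ranges of the 3 times overlapped in the EV-labelled libraries. In the OE-labelled libraries the 24 h sums of 1669 to 1772 CPM lay above the 12 h sums of 1485 to 1564 CPM and overlapped the untreated sums of 1518 to 1767 CPM.

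Ranking levels between genes needs the transcript length. Per kb of the principal transcript, SRSF11 led untreated EV-labelled libraries at 157 ± 13.1 CPM per kb, followed by SRSF1 at 149 ± 18.2 and SRSF10 at 127 ± 13.3, and the ranges of these neighbours overlapped. SRSF4, at 41.0 ± 1.66 CPM per kb, and SRSF6, at 41.4 ± 3.27, were last and overlapped each other. In untreated OE-labelled libraries SRSF9, at 116 ± 33.9 CPM per kb, stood first with a range that overlapped SRSF10, SRSF4 stood at 82.5 ± 4.27, above 6 other members, SRSF11 at 43.7 ± 6.41, above SRSF6 alone, and SRSF6 at 30.8 ± 4.42. The order depends on the length used: per kb of all annotated exons SRSF2 was first in both untreated groups, at 92.3 ± 8.43 and 47.2 ± 8.65 CPM per kb. Its range did not overlap the next member in the EV-labelled group. In the OE-labelled group it overlapped that of SRSF3, at 41.0 ± 3.77 CPM per kb.

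**Figure D1:**
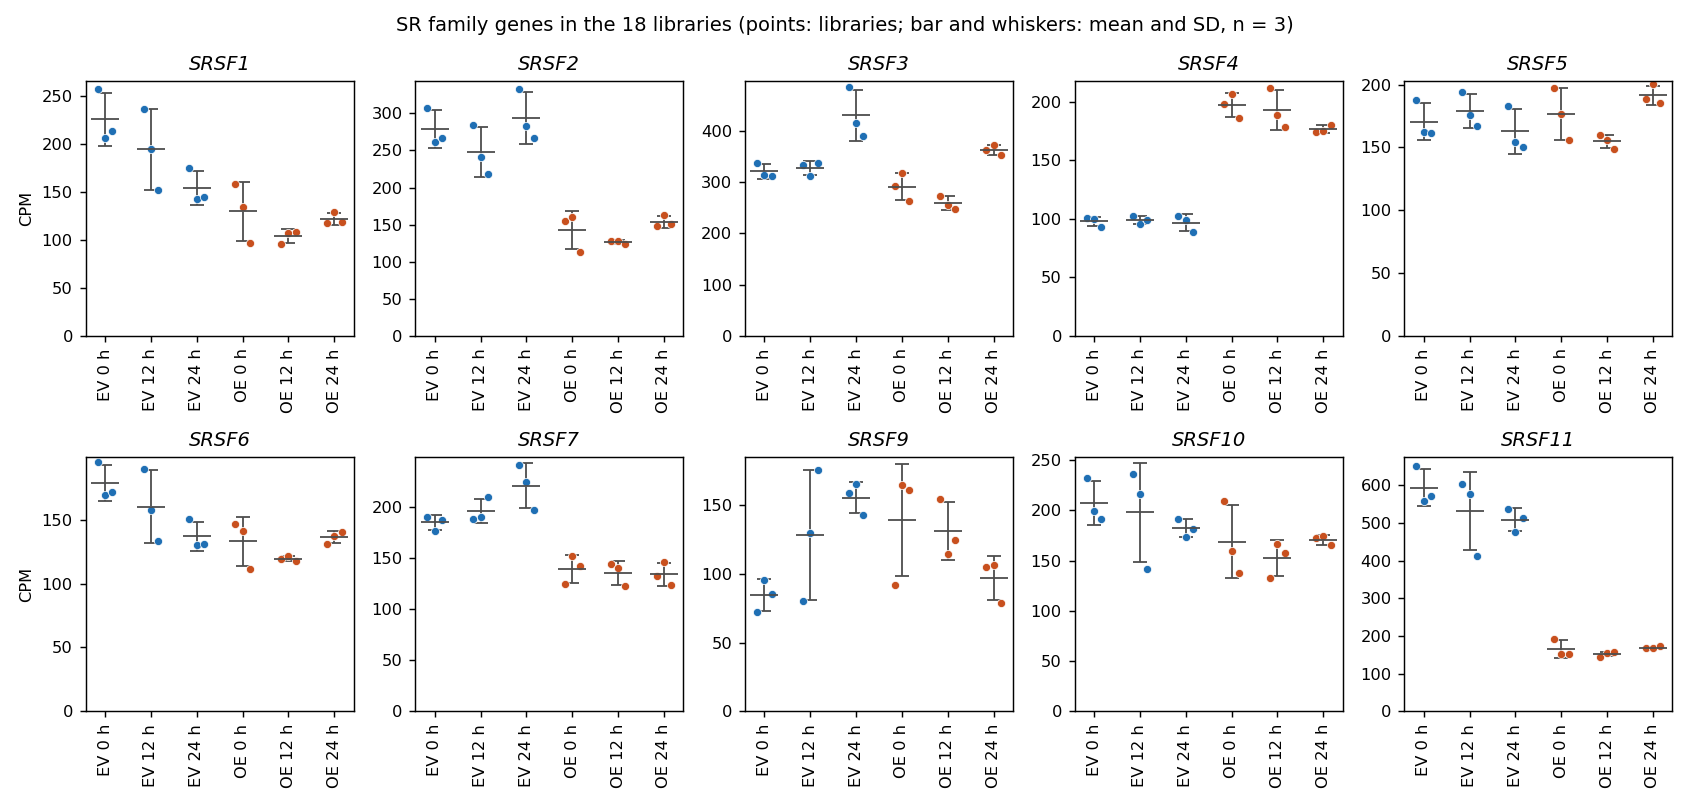
Level of each SR gene in CPM (vertical axis, from 0) in the 18 libraries, for EV-labelled (EV, blue) and OE-labelled (OE, orange) cells at 0 h, 12 h and 24 h of olaparib. Points are single libraries, and bars with whiskers are the mean and SD of 3; SRSF3 at 24 h lies above 0 h in both cell lines, and SRSF11 lies at 413 to 651 CPM in the EV-labelled libraries against 145 to 193 CPM in the OE-labelled ones.

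The first question was whether the SR genes differed between olaparib-treated and untreated (0 h) libraries within the EV-labelled cells. At 12 h none of the 10 SR genes was called by edgeR's quasi-likelihood test at an adjusted p under 0.05, beside 0.0436% of all genes tested. At an unadjusted p under 0.05 there was 1 SR gene, SRSF9, among 2963 genes, and DESeq2 also called none of the 10. The median log2 fold change of the family was -0.03, against 0.00 over all genes. At 24 h 4 of the 10 were called, beside 13.7% of all genes tested: SRSF3 and SRSF9 rose, beside 8.62% of all genes, and SRSF1 and SRSF6 fell, beside 5.12%. The family's median log2 fold change was -0.04 with a median size of 0.24, against 0.00 and 0.28 over all genes, so the members moved in both directions with sizes near those of other genes. Between 12 h and 24 h none was called, beside 0.18% of all genes. At an unadjusted p under 0.05 this comparison held 2 SR genes among 1686 genes, and DESeq2 called 1 of the 10, SRSF3. The offset for GC content and length described below, together with a replicate block, called SRSF2 (0.28, adjusted p = 0.0442) and SRSF3 (0.50, adjusted p = 0.0499).

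SRSF3 is the shortest SR protein, an adaptor for mRNA export and a regulator of alternative splicing and polyadenylation, and its gene carries a well-known poison exon. In EV-labelled cells it had 339, 314 and 313 CPM untreated, 334, 312 and 337 CPM after 12 h and 486, 416 and 391 CPM after 24 h. All 3 libraries at 24 h were above every untreated and every 12 h library, while untreated and 12 h libraries overlapped. The rise from untreated to 24 h was 0.42 ± 0.09 (log2, SE; adjusted p = 0.00814), and the 24 h difference from 12 h was 0.40 ± 0.09 (adjusted p = 0.098), which was called by DESeq2's Wald test (adjusted p = 0.00376) and with the offset for GC content and length (0.50, adjusted p = 0.0217). Without replicate 1 of 24 h, the highest library, the rise from untreated was 0.33 with an adjusted p of 0.0536.

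SRSF9 is a small SR protein with a short arginine/serine domain. Its levels in EV-labelled cells were 72.5, 95.7 and 85.7 CPM untreated, 80.5, 129.5 and 175 CPM after 12 h and 159, 165.5 and 143 CPM after 24 h. The 24 h libraries were all above the untreated ones, and the 12 h libraries spread from the untreated range to above the 24 h range. From untreated to 24 h SRSF9 rose by 0.88 ± 0.22 (log2, SE; adjusted p = 0.0157), the largest fold change of the family in this comparison. The adjusted p was 0.0553 to 0.0908 when untreated replicate 1 or 3 or 24 h replicate 1 or 2 was left out. At 12 h the difference was 0.60 ± 0.22 with an adjusted p of 0.201. It was called there with no filter on low counts (adjusted p = 0.000319) and without replicate 1 of 12 h (0.85, adjusted p = 0.0349), while without replicate 3 of 12 h the difference was 0.30 and was not called.

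SRSF1, the founding member of the family and a shuttling protein known as an oncoprotein in breast epithelium, had 257, 206 and 214 CPM untreated, 236, 194 and 152 CPM after 12 h and 175, 143 and 144 CPM after 24 h in EV-labelled cells. The 24 h libraries were all below the untreated ones, and the 12 h libraries overlapped both. SRSF1 fell by 0.55 on the log2 scale from untreated to 24 h (SE 0.16; adjusted p = 0.0254). SRSF6, which like SRSF4 and SRSF5 has a second, atypical RNA recognition motif, had 195, 169.8 and 172 CPM untreated, 190, 158 and 133 CPM after 12 h and 150.5, 130.1 and 131 CPM after 24 h. Again the 24 h libraries were all below the untreated ones. SRSF6 fell by 0.38 on the log2 scale (SE 0.12; adjusted p = 0.0375). Both calls were near the threshold. That of SRSF1 was lost in 4 and that of SRSF6 in all 6 of the fits that left out 1 of the 6 libraries. Adjusted p-values went up to 0.127 and 0.157. With the offset for GC content and length described below, the SRSF6 difference was -0.16 and not called (adjusted p = 0.14). That of SRSF1 was -0.64 and called (adjusted p = 0.0061).

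The other 6 members gave smaller differences at 24 h in EV-labelled cells. SRSF7, an mRNA export adaptor related to SRSF3, had 191, 177 and 188 CPM untreated and 242, 224 and 197 CPM at 24 h, without overlap, and its difference of 0.26 ± 0.10 (log2, SE) had an adjusted p of 0.0907. SRSF11 had 651, 559 and 573 CPM untreated and 537, 476 and 512 CPM at 24 h, also without overlap, with a difference of -0.22 ± 0.12 and an adjusted p of 0.217. With the compared libraries alone SRSF7 (0.25, adjusted p = 0.0225) and SRSF11 (-0.23, adjusted p = 0.0315) were called. SRSF10, SRSF5 and SRSF4 gave log2 differences of -0.18, -0.07 and -0.02 and overlapped their untreated libraries. SRSF2, which stays in the nucleus and is a reference marker of nuclear speckles, had 308, 261 and 266.5 CPM untreated and 333, 283 and 266 CPM at 24 h, with a 95% interval of the log2 difference from -0.19 to 0.35.

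The same question was asked in OE-labelled cells, where SRSF3 was the member with a called change. At 12 h none of the 10 SR genes was called, beside 2.31% of all genes, and none had an unadjusted p under 0.05, against 2137 genes in all; DESeq2 called none of the 10. All 10 log2 differences were below 0, with a median of -0.15 against 0.00 over all genes. They ranged from -0.32 for SRSF1 to -0.03 for SRSF4. SRSF5 was called with the offset for GC content and length and a replicate block together (-0.22, adjusted p = 0.0296). At 24 h 1 of 10 was called, SRSF3, beside 8.26% of all genes, of which 4.71% were higher and 3.55% lower. The family's median was 0.03 against 0.02 over all genes, and its median size of 0.10 was below the 0.23 of all genes.

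SRSF3 had 292, 318 and 264 CPM in untreated OE-labelled libraries, 274, 255.5 and 248 CPM at 12 h and 364, 373 and 353 CPM at 24 h. The 24 h libraries were all above the untreated and the 12 h libraries. The difference at 24 h was 0.32 ± 0.09 against untreated (log2, SE; adjusted p = 0.0373) and 0.49 ± 0.09 against 12 h (adjusted p = 0.00945). SRSF3 was the 1 of 10 members called between 12 h and 24 h, beside 1.65% of all genes in either direction and 0.791% that were higher. The call against untreated was lost in 4 of the 6 fits that left out 1 library (adjusted p up to 0.151), with no filter on low counts (0.27, adjusted p = 0.148) and when the other conditions were left out of the fit (0.30, adjusted p = 0.147). The call against 12 h was lost without 12 h replicate 2 or 3 or 24 h replicate 2, with adjusted p-values of 0.0534 to 0.0561. Both calls were lost with the offset for GC content and length described below. It gave 0.15 against untreated (adjusted p = 0.414) and 0.30 against 12 h (adjusted p = 0.13). Between 12 h and 24 h, SRSF9 was called too with no filter on low counts (-0.47, adjusted p = 0.00919), and SRSF1, SRSF2, SRSF5, SRSF6 and SRSF9 with the compared libraries alone. With the offset and a replicate block together, SRSF5 was called (0.27, adjusted p = 0.0149) and SRSF3 was not (0.30, adjusted p = 0.18). For SRSF3, 2 of the 12 h libraries lay below the untreated range and 1 within it.

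SRSF9 gave a difference of the other sign in OE-labelled cells, which was not called in the fit described here. Its levels were 92.2, 164.5 and 161 CPM untreated, 155, 114 and 125 CPM at 12 h and 105, 107 and 78.5 CPM at 24 h. At 24 h 2 libraries lay above the lowest untreated library and all 3 below the other 2, and the difference of -0.52 ± 0.22 (log2, SE) had an adjusted p of 0.154. Without untreated replicate 1, which was the low library, the difference was -0.75 with an adjusted p of 0.0157, and with no filter on low counts, where SRSF3 was not called, SRSF9 was (-0.57, adjusted p = 0.000237). SRSF1 had 158, 134 and 96.4 CPM untreated and 118, 129 and 118 CPM at 24 h, and SRSF6 had 147, 141 and 111 CPM untreated and 131, 137 and 141 CPM at 24 h. Their log2 differences at 24 h were -0.09 ± 0.16 and 0.03 ± 0.12. SRSF4 had 198, 207 and 186 CPM untreated and 174, 175 and 180.3 CPM at 24 h, without overlap, with a difference of -0.16 ± 0.09 and an adjusted p of 0.277.

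**Figure D2:**
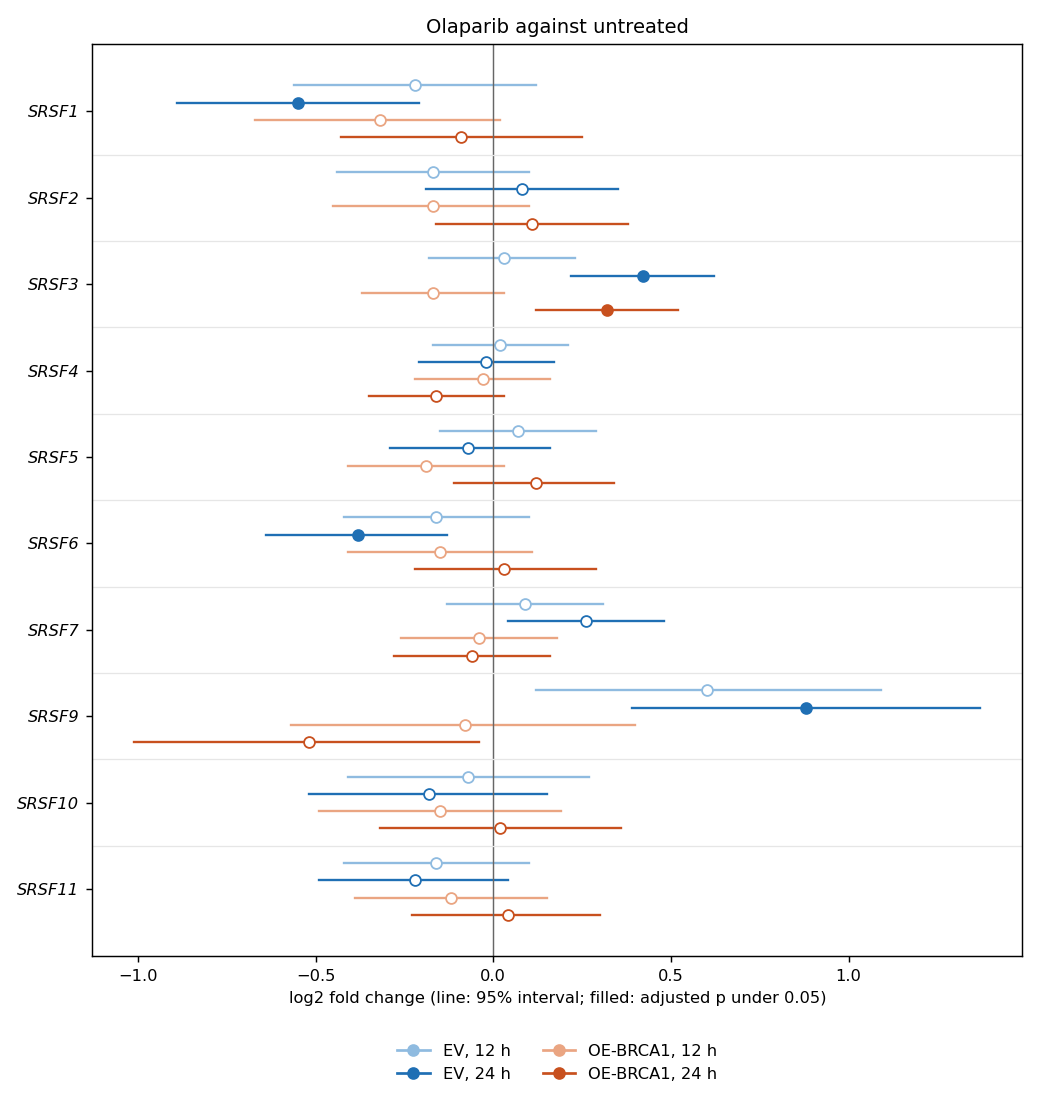
Log2 fold change of each SR gene (horizontal axis) at 12 h and 24 h of olaparib against untreated, in EV-labelled (blue) and OE-labelled (orange) cells, with 95% intervals from the fit over 18 libraries. Filled points had an adjusted p under 0.05: SRSF3 at 24 h in both cell lines (0.42 and 0.32), and SRSF9 (0.88), SRSF1 (-0.55) and SRSF6 (-0.38) at 24 h in EV-labelled cells.

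Whether the response differed between the cell lines was tested with the interaction of cell line and treatment. At 12 h none of the 10 SR genes was called, beside 0.518% of all genes. At an unadjusted p under 0.05 there was 1 SR gene, SRSF9, among 2690 genes, and DESeq2 called none of the 10. With no filter on low counts SRSF9 was called (-0.70, adjusted p = 0.00724). At 24 h 1 of 10 was called, SRSF9, beside 19.4% of all genes, of which 8.16% had a higher and 11.2% a lower effect in OE-labelled cells. Its 24 h effect was lower in OE-labelled than in EV-labelled cells by 1.40 ± 0.32 on the log2 scale (SE; adjusted p = 0.00529). SRSF3, called in both cell lines, gave a difference of -0.10 with a 95% interval from -0.39 to 0.18. The differences of SRSF1 (0.46 ± 0.22, adjusted p = 0.15), SRSF6 (0.42 ± 0.17, adjusted p = 0.084) and SRSF7 (-0.31 ± 0.14, adjusted p = 0.13) were not called, so a difference between the cell lines was not shown for SRSF1 and SRSF6. Without untreated OE-labelled replicate 1 these 3 genes were called too, with adjusted p-values of 0.0261, 0.0294 and 0.0396, whereas the offset for GC content and length described below gave 0.04 for SRSF6 (adjusted p = 0.901).

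A trend with GC content moved with several members. For each library, Spearman's rho was computed over 14764 genes between GC content and how far each gene lay from its average in that cell line. It was -0.54, -0.21 and -0.40 in the untreated EV-labelled libraries, -0.54, -0.19 and 0.60 at 12 h and 0.26, 0.57 and 0.39 at 24 h. In OE-labelled libraries it was -0.58, 0.30 and 0.54 untreated, 0.54, 0.18 and 0.21 at 12 h and -0.29, -0.39 and -0.44 at 24 h. The untreated and 24 h EV-labelled libraries did not overlap in rho, nor did the 12 h and 24 h OE-labelled ones, while the 12 h EV-labelled and the untreated OE-labelled libraries each held negative and positive values. SRSF9 followed it: the 12 h EV-labelled libraries at -0.54, -0.19 and 0.60 had 80.5, 129.5 and 175 CPM. Over the 18 libraries, after each cell line's mean was subtracted, log2 CPM correlated with the library's rho at 0.93 for SRSF9, -0.91 for SRSF11, -0.88 for SRSF6, -0.87 for SRSF1 and -0.86 for SRSF10. For SRSF3 the correlation was -0.02, for SRSF4 0.19, for SRSF2 -0.49, for SRSF7 0.62 and for SRSF5 -0.72. Of 10011 genes with at least 10 CPM, 13.52% reached 0.8 or more and 12.16% reached -0.8 or less, so such values were common. These are descriptions over libraries that share conditions and, within a library, 1 set of counts.

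SRSF9 has a principal transcript of 52.3% GC and SRSF1 of 49.4%, against a median of 49.3% over the genes tested. SRSF3, SRSF6 and SRSF11 have 39.3%, 39.6% and 38.3%. SRSF4, whose correlation with rho was 0.19, has 52.2%, and SRSF7, whose correlation was 0.62, has 40.9%. SRSF2, SRSF5 and SRSF10 have 45.6%, 49.0% and 43.8%. The fit was repeated with a trend of each library on GC content and length as an offset. At 24 h in EV-labelled cells SRSF3 (0.64, adjusted p = 0.000692), SRSF9 (0.72, adjusted p = 0.0105) and SRSF1 (-0.64, adjusted p = 0.0061) were still called, SRSF6 was not (-0.16, adjusted p = 0.14) and SRSF7 was (0.38, adjusted p = 0.0322). The difference of SRSF11 there went from -0.22 to -0.00 (adjusted p = 1). In OE-labelled cells at 24 h SRSF3 was not called with the offset, against untreated (0.15, adjusted p = 0.414) or against 12 h (0.30, adjusted p = 0.13), and SRSF4 was (-0.18, adjusted p = 0.0491). For the difference of the 24 h effects, SRSF9 was still called (-1.18, adjusted p = 0.0026), and SRSF3 (-0.50, adjusted p = 0.0285) and SRSF7 (-0.57, adjusted p = 0.0191) were called as well. The rise of SRSF3 was thus called with and without the offset in EV-labelled cells and without it alone in OE-labelled cells.

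**Figure D3:**
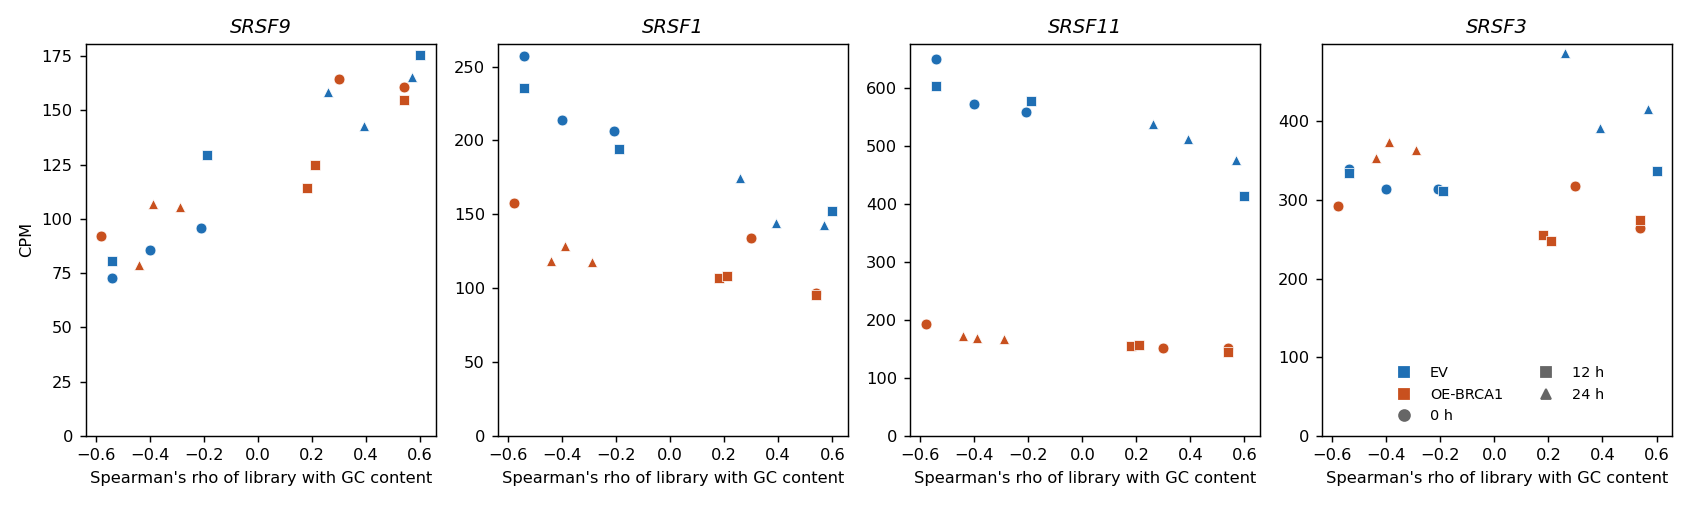
Level of SRSF9, SRSF1, SRSF11 and SRSF3 in CPM (vertical axes, from 0) against Spearman's rho between GC content and the gene deviations of the library (horizontal axis) for the 18 libraries, with colour for the cell line and symbol for the time of olaparib. SRSF9 goes up with rho in both cell lines while SRSF1 and SRSF11 go down, and the 24 h libraries of SRSF3 are the highest of their cell line at either end of the axis.

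The cell lines were compared next, with the reservation on their labels given above. In untreated cells 7 of 10 SR genes were called, beside 72.7% of all genes tested, so the share was close to that of the rest. Of the 10, 2 were higher and 5 lower in OE-labelled cells, beside 39.4% and 33.3% of all genes. The family's median log2 difference of OE-labelled against EV-labelled cells was -0.35, against 0.11 over all genes, and its median size of 0.57 was below the 0.96 of all genes. At 12 h 8 of 10 were called, beside 72.9% of all genes, with 1 higher (38.8%) and 7 lower (34.1%). At 24 h 7 of 10 were called, beside 73.9%, with 2 higher (39.9%) and 5 lower (34%).

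SRSF11, a spliceosome-associated SR protein, had the largest difference of the family. It was read at 651, 559 and 573 CPM in untreated EV-labelled libraries and at 193, 151 and 151 CPM in untreated OE-labelled ones. No library of one cell line reached the range of the other at any time. The log2 difference was -1.85 ± 0.13 untreated (SE; adjusted p = 2.44e-11), -1.80 ± 0.13 at 12 h and -1.59 ± 0.12 at 24 h. SRSF11 was 25.3% of the family's summed CPM in untreated EV-labelled cells and 9.82% in OE-labelled cells.

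SRSF4, the longest SR protein of the list, had the opposite pattern. It had between 88.8 and 102.5 CPM over the 9 EV-labelled libraries and between 174 and 211 CPM over the 9 OE-labelled ones. Its log2 difference was 1.01 ± 0.09 untreated (SE; adjusted p = 1.3e-09), 0.96 ± 0.09 at 12 h and 0.87 ± 0.09 at 24 h. Its share of the family's summed CPM was 4.18% in untreated EV-labelled and 11.7% in untreated OE-labelled cells.

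SRSF2 had 308, 261 and 266.5 CPM in untreated EV-labelled libraries and 155, 160.1 and 112.5 CPM in OE-labelled ones, again without overlap, and the difference was -0.97 ± 0.13 (log2, SE; adjusted p = 6.16e-07). It stayed between -0.97 and -0.94 at the later times. SRSF7 was lower in OE-labelled cells by 0.41, 0.54 and 0.72 on the log2 scale at 0 h, 12 h and 24 h, each with an SE of 0.10. For SRSF1 the log2 difference was -0.80 ± 0.16 untreated and -0.91 ± 0.16 at 12 h, both called, and -0.34 ± 0.16 at 24 h with an adjusted p of 0.055. For SRSF6 it was -0.43 ± 0.12, -0.42 ± 0.12 and -0.01 ± 0.12, the first 2 called. With the offset for GC content and length, SRSF6 was called at 24 h too (-0.22, adjusted p = 0.00732). SRSF1 was called at 24 h with no filter on low counts (-0.40, adjusted p = 0.00232) and with the compared libraries alone (-0.33, adjusted p = 0.00233). SRSF9 was higher in untreated OE-labelled cells by 0.72 ± 0.22 (adjusted p = 0.00682), although untreated OE-labelled replicate 1, at 92.2 CPM, lay inside the EV-labelled range. It was lower at 24 h by 0.68 ± 0.22 (adjusted p = 0.00907). At 24 h the call of SRSF9 was lost without OE-labelled replicate 3 (-0.55, adjusted p = 0.0556).

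The remaining members had the smallest differences of the family in untreated cells. SRSF3 gave -0.14 ± 0.09 untreated (adjusted p = 0.169), -0.34 ± 0.09 at 12 h (adjusted p = 0.00263) and, after 24 h, -0.25 ± 0.09 (adjusted p = 0.0208). SRSF5 ranged from 151 to 194 CPM in EV-labelled and from 149 to 200.2 CPM in OE-labelled libraries, with log2 differences of 0.05, -0.21 and 0.24, of which the last had an adjusted p of 0.0441. The second was called with the GC and length offset (-0.20, adjusted p = 0.0267), with the offset and the replicate block together (-0.20, adjusted p = 0.00432) and without EV-labelled 12 h replicate 3 (-0.25, adjusted p = 0.0412). SRSF10, which represses splicing when dephosphorylated, ranged from 142 to 236 CPM and from 133 to 209 CPM, and its log2 differences were -0.30, -0.38 and -0.10, of which the second had an adjusted p of 0.0363. The first was called with no filter on low counts (-0.29, adjusted p = 0.0284) and with the offset (-0.29, adjusted p = 0.0302). It was -0.48 and called without untreated OE-labelled replicate 1 (adjusted p = 0.00829), and -0.17 and not called without untreated OE-labelled replicate 3. The calls of SRSF5 at 24 h and SRSF10 at 12 h were each lost when single libraries were left out, with adjusted p-values up to 0.146 and 0.209. That of SRSF5 was also lost with no filter on low counts (0.18, adjusted p = 0.212). That of SRSF10 was also lost with DESeq2's size factors (adjusted p = 0.0616), DESeq2's Wald test (0.0635), the compared libraries alone (0.0795) and the GC and length offset with the replicate block (0.0607). The call of SRSF3 at 12 h was lost with the GC and length offset and the replicate block together (adjusted p = 0.0526). That at 24 h was lost without EV-labelled replicate 1 (adjusted p = 0.15), OE-labelled replicate 1 (0.0518) or OE-labelled replicate 3 (0.0701).

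**Figure D4:**
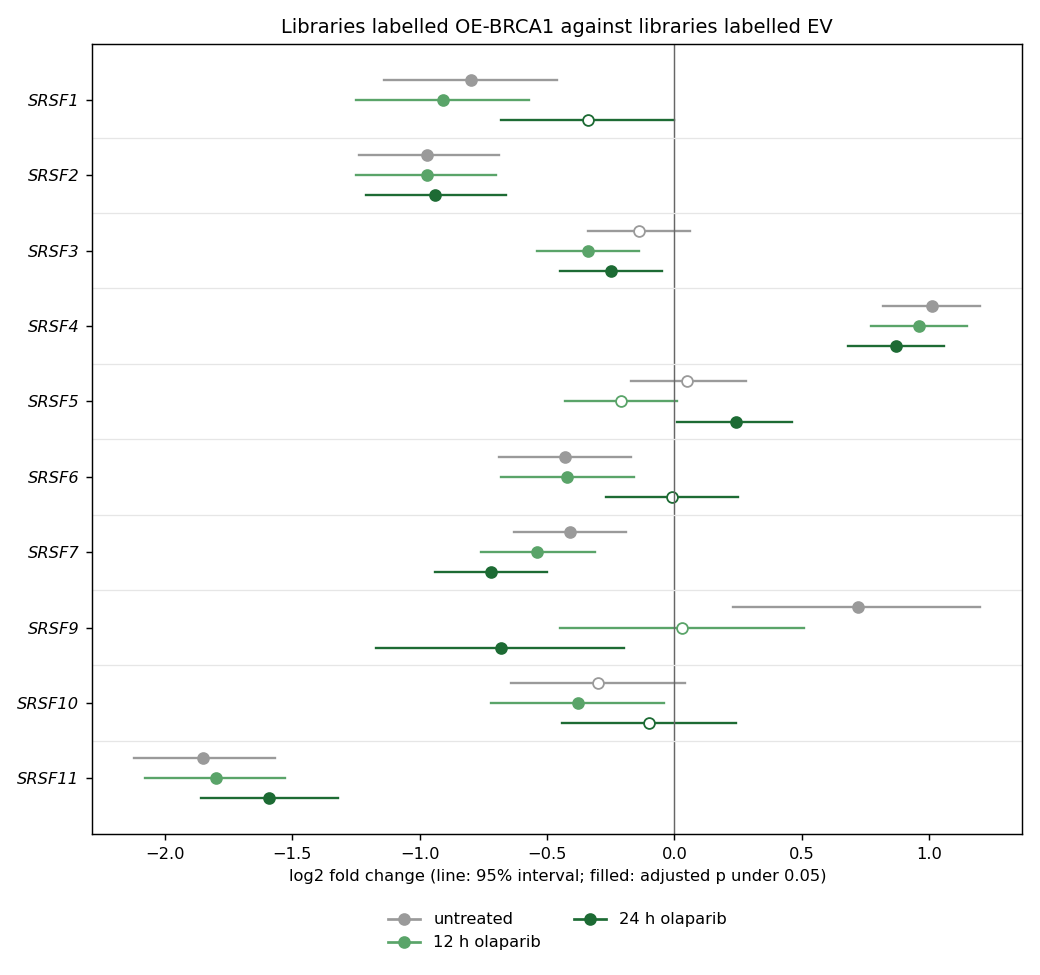
Log2 fold change of each SR gene in OE-labelled against EV-labelled libraries (horizontal axis) untreated and after 12 h and 24 h of olaparib, with 95% intervals and filled points for an adjusted p under 0.05. SRSF11 (-1.85 untreated) and SRSF2 (-0.97) lie to the left and SRSF4 (1.01) to the right at every time, and SRSF9 goes from 0.72 untreated to -0.68 at 24 h.

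Correlations between members differed by pair. After each cell line's mean was subtracted, log2 CPM over the 18 libraries correlated at 0.96 between SRSF1 and SRSF6 and at 0.93 between SRSF10 and SRSF11, the 2 highest of the 45 pairs. The lowest values joined SRSF9 with SRSF11 (-0.84), SRSF6 (-0.82), SRSF1 (-0.76) and SRSF10 (-0.75). SRSF3 was closest to SRSF2 (0.71) and SRSF7 (0.52) and had -0.09 with SRSF1 and 0.00 with SRSF11. The genes most like each member by the same measure, among 10011 genes, were C9orf40 (0.940), ALPP (0.908) and PRSS23 (0.908) for SRSF3. They were ATP5MC3 (0.983), ENDOG (0.980) and NDUFA2 (0.978) for SRSF9, SNX5 (0.973), NAP1L1 (0.966) and SRSF6 (0.963) for SRSF1, and CDC27 (0.977), LRRC58 (0.973) and RBM25 (0.973) for SRSF11. For SRSF6 they were SRSF1 (0.963), SSB (0.959) and RBMX (0.958), and for SRSF10 they were ALG6 (0.962), SYPL1 (0.960) and SLC30A9 (0.955). SRSF4 had no close match, with FAM136A highest at 0.782, and the highest values were 0.860 for SRSF2 (ESD), 0.909 for SRSF7 (TGFB1) and 0.940 for SRSF5 (VRK1). These values carry no test, and the libraries share conditions and the GC trend.

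Genes around the family were described from 4 further lists. The first list held kinases, phosphatases and import receptors, 17 genes, all tested. It is a broad list, and a member need not act on SR proteins. At 24 h in EV-labelled cells 1 was higher and 2 were lower, with a median log2 fold change of -0.14. SRPK1, a main SR protein kinase, fell from 130.5 to 96.4 CPM (-0.44 ± 0.11, adjusted p = 0.015) and TNPO1, an import receptor, from 460 to 309 CPM (-0.58 ± 0.14, adjusted p = 0.0123). The phosphatase subunit PPP1CA rose from 132 to 192 CPM (0.53 ± 0.14, adjusted p = 0.0176). In OE-labelled cells at 24 h 1 gene of the list was called, CDK11A, at 0.246 CPM against 0.0205 CPM untreated. These means stand for only a few reads in a library, its near-identical neighbour CDK11B may share them, and the mean level in untreated EV-labelled libraries was 1.59 CPM, so nothing is read from this call. Between the untreated cell lines 4 of the 17 were higher and 8 lower in OE-labelled cells, beside 39.4% and 33.3% of all genes. TNPO1 was lower, at 90.9 against 460 CPM (-2.34 ± 0.15, adjusted p = 5.92e-12). CDK11A was called lower too, at 0.0205 against 1.59 CPM, and for the same reasons nothing is read from that call. PPP1CA was higher, at 281 against 132 CPM (1.09 ± 0.14, adjusted p = 5.76e-07), and so was CLK1, a kinase that releases SR proteins from speckles, at 65.8 against 37.0 CPM (0.83 ± 0.12, adjusted p = 2.37e-06).

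Of 30 other SR-related splicing regulators 29 were tested, and 3 were higher and 6 lower at 24 h in EV-labelled cells, with a median of -0.16. SNRNP70, a protein of the U1 particle that SR proteins contact, rose from 344 to 492 CPM (0.51 ± 0.14, adjusted p = 0.0236), and SCAF1 from 146 to 201 CPM (0.46 ± 0.15, adjusted p = 0.0401). NKTR fell from 158 to 106.5 CPM (-0.57 ± 0.16, adjusted p = 0.0227) and SCAF4 from 47.9 to 35.3 CPM (-0.44 ± 0.10, adjusted p = 0.00934). In OE-labelled cells none of the 29 was called at 24 h, and the median was 0.04. For the difference of the 24 h effects 7 were higher and 2 lower, beside 8.16% and 11.2% of all genes, with NKTR (0.68 ± 0.22, adjusted p = 0.0373) and BCLAF1 (0.65 ± 0.22, adjusted p = 0.0456) among the former and SNRNP70 (-0.77 ± 0.20, adjusted p = 0.0126) and SCAF1 (-0.69 ± 0.20, adjusted p = 0.023) the latter. In untreated cells 4 were higher and 14 lower in OE-labelled libraries, beside 39.4% and 33.3% of all genes, and SCAF1 and ZRANB2 had differences of 1.04 and -1.80 on the log2 scale.

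All 26 hnRNP genes were tested. At 24 h in EV-labelled cells 3 were higher and 4 lower, with a median of -0.04. HNRNPA0 rose from 249 to 478 CPM (0.94 ± 0.16, adjusted p = 0.00248) and PTBP3 fell from 133 to 89.2 CPM (-0.58 ± 0.17, adjusted p = 0.0297). In OE-labelled cells none was higher and 3 were lower, among them HNRNPC, from 684 to 519 CPM (-0.40 ± 0.09, adjusted p = 0.00646), and HNRNPM, from 492.5 to 375 CPM (-0.39 ± 0.12, adjusted p = 0.0441). For the difference of the 24 h effects 1 was higher and 6 lower, beside 8.16% and 11.2% of all genes, with HNRNPA0 at -1.44 ± 0.23 (adjusted p = 0.000616).

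Of 19 genes of nonsense-mediated decay and the exon junction complex, all tested, 3 were lower and none higher at 24 h in EV-labelled cells. SMG1, the kinase of the pathway, fell from 209.9 to 136 CPM (-0.62 ± 0.18, adjusted p = 0.0297). In OE-labelled cells 1 was called, the exonuclease XRN1, which rose from 35.9 to 62.3 CPM (0.80 ± 0.22, adjusted p = 0.0273). At 12 h no gene of the 4 lists was called in either cell line. For the counts at 24 h against untreated, the share of all genes called was 13.7% in EV-labelled and 8.26% in OE-labelled cells.

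Reads could be shared where SR exons overlap other genes, and the strand setting of the counting is not given in the sources used here. SRSF9 shares 46.2% of its annotated exonic bases with GATC on the opposite strand. GATC had mean levels of 37.2 CPM untreated and 37.4 CPM at 24 h in EV-labelled libraries, a log2 difference of 0.01 ± 0.13. In OE-labelled libraries its mean levels were 20.6 CPM untreated and 18.8 CPM at 24 h (-0.13 ± 0.14, adjusted p = 0.619). Its log2 difference of OE-labelled against EV-labelled libraries was -0.85 untreated, -1.02 at 12 h and -0.99 at 24 h, each called. The part of shared reads in the SRSF9 counts was not tested. SRSF2 shares 36.7% with MFSD11 on the opposite strand, which had 20.5 and 26.6 CPM (0.37 ± 0.11, adjusted p = 0.0266). In SRSF1, 56.6% of the exonic bases also belong to the annotated gene AC015813.2 on the same strand, whose part in the SRSF1 counts was not tested. The pseudogene SRSF9P1 had 26 reads over the 18 libraries.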

How the data were processed

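RNA was extracted and sequenced by the authors, who deposited whole-number counts of reads for each gene, not normalized, in a joint table of 18 libraries and in 1 table per library with the same values. The submitters' processing notes name HISAT2, featureCounts and DESeq2 without versions and the builds GRCh38 and hg38, and the annotation release and strand setting are not given in the sources used here. Groups and replicate numbers were taken from the sample titles. Of 35044 identifiers 99.72% matched a symbol without the version, and positions, transcript lengths and GC content came from GENCODE 29 (GRCh38), where 96.6% were found.

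Counts were analysed with edgeR 4.0.16 in R 4.3.3: TMM, filterByExpr by condition (18335 genes), 1 mean per condition over 18 libraries, the quasi-likelihood test and Benjamini-Hochberg adjustment over all genes tested. "Called" means that the adjusted p was under 0.05 whatever the fold change. The biological coefficient of variation was 12.9%. The 11 comparisons were the times within each cell line, the cell lines at each time and the differences of the treatment effects. The script was tested on simulated data. Alternatives were DESeq2 1.42.0 (size factors, Wald test), no filter, the compared libraries alone, a replicate block, an offset for GC content and length, and each library left out in turn. No pair of replicates agreed within sampling noise, with chi-square per degree of freedom of at least 3.25.

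The members and lists were chosen with earlier results of these data known. All members are named, as are up to 2 called genes with the largest rise and up to 2 with the largest fall from each further list in each comparison described, the 3 genes most like each member by Pearson r of log2 CPM (prior count 2, at least 10 CPM; for SRSF2, SRSF4, SRSF5 and SRSF7 the first alone), and BRCA1 as a label check. A gene that this rule names and a further label check are not reported here. MFSD11 and GATC were named for their overlap. Alternative splicing and the study's other experiments were not analysed here.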

Additional observations from a re-analysis of the deposited data

Results flagged for a closer look

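The response of SRSF9 to 24 h of olaparib differed between the cell lines by the interaction term of the fit, with a log2 difference of -1.40 ± 0.32 (SE; adjusted p = 0.00529 by edgeR's quasi-likelihood test). SRSF9 was higher at 24 h in 3 of 3 EV-labelled libraries than in any untreated one, at 143 to 165.5 CPM against 72.5 to 95.7 CPM. In OE-labelled cells it was at 78.5 to 107 CPM against 92.2 to 164.5 CPM untreated. The library trend with GC content moved with it, from negative to positive rho in EV-labelled cells and from 1 negative and 2 positive values to 3 negative values in OE-labelled cells. With the offset for GC content and length the difference was -1.18 (adjusted p = 0.0026).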

How the results depend on the processing

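No SR gene changed the sign of a call under any alternative run. Among log2 fold changes of single members, 48 alternatives lost a call, 44 gained one and 1458 kept their side of the threshold. For counts of calls, given in the order in which comparisons are named, the values that moved by more than 1.5 times were as follows, and the cause was not tested.

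With DESeq2's Wald test 276 genes were called at 12 h in EV-labelled cells (8 in edgeR), 156 genes and 1 SR gene between 12 h and 24 h there (33 and 0), 669 at 12 h in OE-labelled cells (423), 818 between 12 h and 24 h there (303) and 357 for the difference of the 12 h effects (95). With no filter on low counts the values were 818 genes and 1 SR gene at 12 h in EV-labelled cells, 139 genes between 12 h and 24 h there, 959 genes and 2 SR genes between 12 h and 24 h in OE-labelled cells (303 and 1), and 644 genes and 1 SR gene for the difference of the 12 h effects. With the libraries of the compared conditions alone they were 0 genes at 12 h, 5173 at 24 h (2520) and 6 between 12 h and 24 h in EV-labelled cells; 809 genes and 0 SR genes at 24 h (1515 and 1) and 3208 genes and 6 SR genes between 12 h and 24 h in OE-labelled cells; and 37 genes for the difference of the 12 h effects. With the GC and length offset they were 201 genes at 12 h and 257 genes and 1 SR gene between 12 h and 24 h in EV-labelled cells; 1317 genes at 12 h, 3186 at 24 h, and 836 genes and 0 SR genes between 12 h and 24 h in OE-labelled cells; 681 genes for the difference of the 12 h effects, and 3 SR genes for that of the 24 h effects. With the offset and the replicate block together they were 49 genes at 12 h and 231 genes and 2 SR genes between 12 h and 24 h in EV-labelled cells; 1228 genes and 1 SR gene at 12 h, 3018 genes at 24 h and 702 between 12 h and 24 h in OE-labelled cells; 582 genes for the difference of the 12 h effects, and 3 SR genes for that of the 24 h effects.

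The replicate numbers were not shown to pair the libraries: of 18 same-numbered pairs within a cell line 7 correlated at over 0.1, with a range of -0.57 to 0.38. The replicate block alone gave 1 gene at 12 h in EV-labelled cells in place of 8, and moved no other count by over 1.5 times. It added the calls of SRSF5 between the cell lines at 12 h (-0.21, adjusted p = 0.0334) and of SRSF1 at 24 h (-0.34, adjusted p = 0.0339).

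Leaving out 1 library at a time gave 1 to 462 genes and 0 to 1 SR genes at 12 h, 462 to 2227 genes and 1 to 3 SR genes at 24 h, and 14 to 115 genes and 0 SR genes between 12 h and 24 h in EV-labelled cells. In OE-labelled cells it gave 257 to 468 genes and 0 SR genes, 644 to 3329 genes and 0 to 2 SR genes, and 69 to 103 genes and 0 to 1 SR genes. Between the cell lines it gave 12866 to 13446 genes and 7 to 8 SR genes untreated, 12822 to 13324 and 7 to 9 at 12 h and 13043 to 13263 and 5 to 6 at 24 h. For the differences of the effects it gave 49 to 772 genes and 0 SR genes at 12 h and 2062 to 5502 genes and 1 to 4 SR genes at 24 h. Each SR gene had at least 1167 reads in a library, and with 3 libraries a group the SE of the log2 differences was 0.09 to 0.22 in comparisons within a cell line.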
